A study of Mus musculus with 8 samples.

Results

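Proteoglycans and the enzymes that build, modify and degrade their sugar chains were examined in lower molars of mouse embryos lacking the Notch ligand Jagged1 in the epithelium. The set was a list of 46 mouse gene symbols: 14 core proteins, 21 enzymes of chain synthesis and sulfation, 2 extracellular sulfatases, 6 lysosomal hydrolases and 3 hyaluronan synthases. Each symbol was matched to its Ensembl identifier, and all 46 were among the 43629 genes listed in the count table of each embryo. Of these, 45 had enough counts to be tested, together with 17129 genes in all, and Has1 had not.

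RNA was sequenced from 4 K14Cre;Jagged1fl/fl embryos (K14J26, K14J28, K14J29 and K14J30) and 4 WT littermates (J3, J5, J6 and J7) at E18.5, with the left and right lower first molars of an embryo pooled. The WT embryos, called control in the plots, were Jagged1fl/fl without the Cre transgene, so both groups carried the floxed alleles. Cre was driven by the promoter of keratin 14, which is active in epithelium, so that the mesenchyme of the mutant teeth kept Jag1, and whole molars hold both tissues. Sex and litter of each embryo were not used here. Replicates were separate embryos.

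Proteoglycans are proteins that carry long, negatively charged glycosaminoglycan chains. A chain is started on a serine by a short linker, is extended as chondroitin or heparan, and is then sulfated and epimerized in the Golgi, while hyaluronan is made at the cell surface without a core protein and without sulfate. In developing teeth these molecules fill the matrix of the dental papilla and the basement membrane between epithelium and mesenchyme, and heparan sulfate binds FGF, Wnt, BMP and hedgehog ligands.

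Libraries held 17327224 to 28613574 counts in WT embryos and 24692128 to 29792467 in mutant embryos, and 3 counts corresponded to 0.0998 to 0.166 CPM (counts scaled to a common library size). The deleted gene Jag1 was at 95.2 to 104 CPM in the WT embryos and at 34.0 to 57.1 CPM in the mutants (log2 fold change -1.19 ± 0.14 SE, edgeR adjusted p = 0.00517). Embryos of a group were unequal in their tissue markers. Amelx, Ambn and Enam, which encode enamel matrix proteins, took 9.57% of all counts in K14J26, 2.47% in K14J29, 0.965% in K14J30, 0.356% in K14J28 and at most 0.329% in WT embryos. The normalization factor of K14J26 was 0.843 against 0.969 to 1.04 in the others. All 4 ameloblast markers, 2 of 3 odontoblast markers, 2 of 4 osteoblast markers and 1 of 5 dental epithelial markers rose at an adjusted p under 0.05, and 4 of 5 dental mesenchymal markers fell, their sum lying at 190 to 230 CPM in WT and at 145 to 167 CPM in mutant molars. Of the other lists, 1 of 4 pericyte markers rose and 1 of 7 skeletal muscle markers fell. Summed skeletal muscle markers were at 399 CPM in J6 and 198 CPM in J7 and at most at 18.7 CPM elsewhere. In K14J28 the sum of osteoclast markers was 1810 CPM against 302 to 684 CPM elsewhere, and that of cornified oral epithelium was 704 CPM against at most 149 CPM. The part of these differences in the results below was not tested. In bulk tissue, fewer cells of a type and less RNA per cell cannot be told apart.

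Regions before the start sites of Vcan, Sdc4, Arsb and Hyal1 are shown, because Vcan, Sdc4 and Hyal1 passed the test in every fit that left out 1 embryo and Arsb had the largest change. They are the bases before the RefSeq start site on GRCm38.p6, 5′ to 3′ on the strand of the gene, up to 250 bases and without bases that GENCODE places in an exon of the gene. Capitals mark TGGGAA, the core of the motif recognized by RBPJ, the DNA-binding partner of the Notch intracellular domain. Vcan lies on the minus strand (chr13:89742513-89742762), as does Sdc4 (chr2:164443189-164443438), while Arsb (chr13:93771429-93771629) and Hyal1 (chr9:107576700-107576926) lie on the plus strand. GENCODE starts Sdc4 farther out, at 164443887, so the Sdc4 region lies inside the gene as annotated there, outside its exons. The Arsb region is also exonic to Gm47210, a noncoding RNA on the other strand.
Vcan: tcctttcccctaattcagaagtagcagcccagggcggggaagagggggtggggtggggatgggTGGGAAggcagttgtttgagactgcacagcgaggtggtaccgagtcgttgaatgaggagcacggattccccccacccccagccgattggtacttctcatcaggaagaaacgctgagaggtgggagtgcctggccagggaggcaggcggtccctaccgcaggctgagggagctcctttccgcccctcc
Sdc4: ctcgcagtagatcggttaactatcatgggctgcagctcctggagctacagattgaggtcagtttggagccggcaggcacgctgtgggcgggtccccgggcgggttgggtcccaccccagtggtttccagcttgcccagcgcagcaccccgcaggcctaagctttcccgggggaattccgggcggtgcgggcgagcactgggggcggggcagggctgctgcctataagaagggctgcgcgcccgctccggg
Arsb: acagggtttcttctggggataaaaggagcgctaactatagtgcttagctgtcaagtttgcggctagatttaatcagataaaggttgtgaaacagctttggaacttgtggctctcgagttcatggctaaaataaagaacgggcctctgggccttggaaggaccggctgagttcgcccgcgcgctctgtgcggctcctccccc
Hyal1: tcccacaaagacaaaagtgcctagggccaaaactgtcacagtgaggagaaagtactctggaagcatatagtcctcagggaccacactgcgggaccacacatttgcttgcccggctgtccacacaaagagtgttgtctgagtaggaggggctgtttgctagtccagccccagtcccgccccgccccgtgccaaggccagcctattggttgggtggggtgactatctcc

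TGGGAA was searched on both strands (reverse complement TTCCCA) in windows from 250 bases before to 50 bases after each start. RefSeq windows were found for 34 of the 46 genes, 38 windows in all, and the letters were present in 3 of them (7.89%), those of Vcan, Hspg2 and 1 of those of Sulf2, against 25.6% of all 32851 windows. In Vcan the match began at position -187. The longer GTGGGAA, which contains TGGGAA, was in 5.26% of the windows of the set and in 6.38% of all windows. Member windows had a median GC content of 66.0%, against 52.7% over all windows.

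Across the set, 12 of 45 genes (26.7%) passed an adjusted p under 0.05 in edgeR's quasi-likelihood test, 5 upward and 7 downward in the mutant. Among all 17129 genes tested, 16.1% were called, 9.52% higher and 6.61% lower. The median log2 fold change was 0.03 in the set and 0.01 over all genes, and 36 of the 45 lay under 0.5 in absolute value. The study called a gene at an unadjusted p not above 0.05 with a fold change of 0.5 or more, for which no scale was stated. With that fold change read here as an absolute log2 value, these criteria were met by 6 genes upward and 2 downward (17.8%), against 14.2% of all genes (8.33% upward and 5.85% downward). An unadjusted p lay under 0.05 in 20 of the 45, against 34.9% over the whole table. Groups did not overlap in 17 genes (37.8%), against 24.2% of all genes. In 8 of the 17 the mutants were higher and in 9 lower, against 12.6% and 11.6% of all genes. By role, at an adjusted p under 0.05, core proteins gave 3 falls and no rise among 14. Synthesis and sulfation enzymes gave 4 falls and 2 rises among 21. The study's criteria gave 2 rises and 2 falls among the core proteins, and 1 rise and no fall among these enzymes. The 6 lysosomal hydrolases gave 2 rises and no fall by either rule, with fold changes above 0 in all 6.

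**Figure D1:**
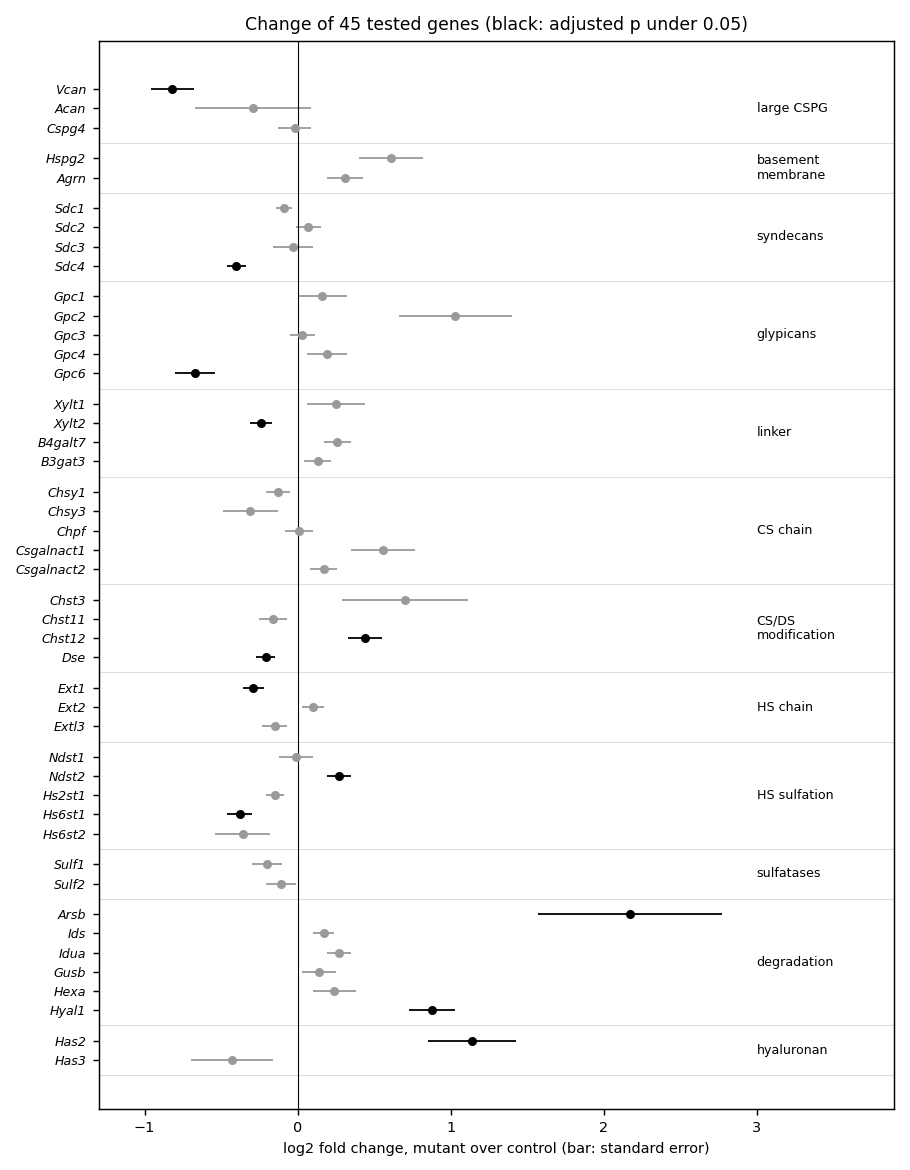
Log2 fold change (mutant over WT, horizontal axis) of each of the 45 tested genes with its standard error, grouped by role; black marks an adjusted p under 0.05. Core protein calls lie to the left of 0 (Vcan -0.82, Gpc6 -0.67, Sdc4 -0.40), and Arsb (2.17) lies farthest to the right.

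The number of calls varied with the embryos entered, while the log2 fold changes of the 12 genes kept their sign in each of the 8 fits that left out 1 embryo. Ext1, for example, stayed between -0.33 and -0.23 and Chst12 between 0.36 and 0.47. Vcan, Sdc4 and Hyal1 were called in all 8. Without J3, without J7 or without K14J29 these 3 were the only genes of the set called, while the share of all tested genes called was 3.86%, 3.16% and 2.48%. Without J5, Gpc6 was called beside them (4.93% of all genes), and without J6 both Gpc6 and Hs6st1 were (8.25%). Leaving out K14J30 gave 7 calls, the same 5 with Arsb and Has2 (12.7% of all genes). Without K14J26 there were 11 (18.2% of all genes), as Dse and Ndst2 were lost and Chst11 was added, and without K14J28 there were 19 (25.5%), of which 12 were the original calls and the others were Agrn, B4galt7, Csgalnact1, Gpc2, Hs2st1, Hspg2 and Idua. K14J26 was the highest or lowest embryo for 25 of the 45 genes, J7 for 18 and each of the others for at most 13.

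Levels per length of exon spanned a wide range. Gpc3, a glypican anchored to the membrane by a lipid, was the most abundant gene at a mean of 172 RPKM (CPM per kilobase of exon), followed by Sdc1 at 80.8 and Agrn at 68.1 RPKM. Acan, the large proteoglycan of cartilage, was the lowest of those tested at 0.232 RPKM. Xylt1 at 0.694 RPKM, Has2 at 0.668 RPKM and Chsy3 at 0.311 RPKM were also low.

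**Figure D2:**
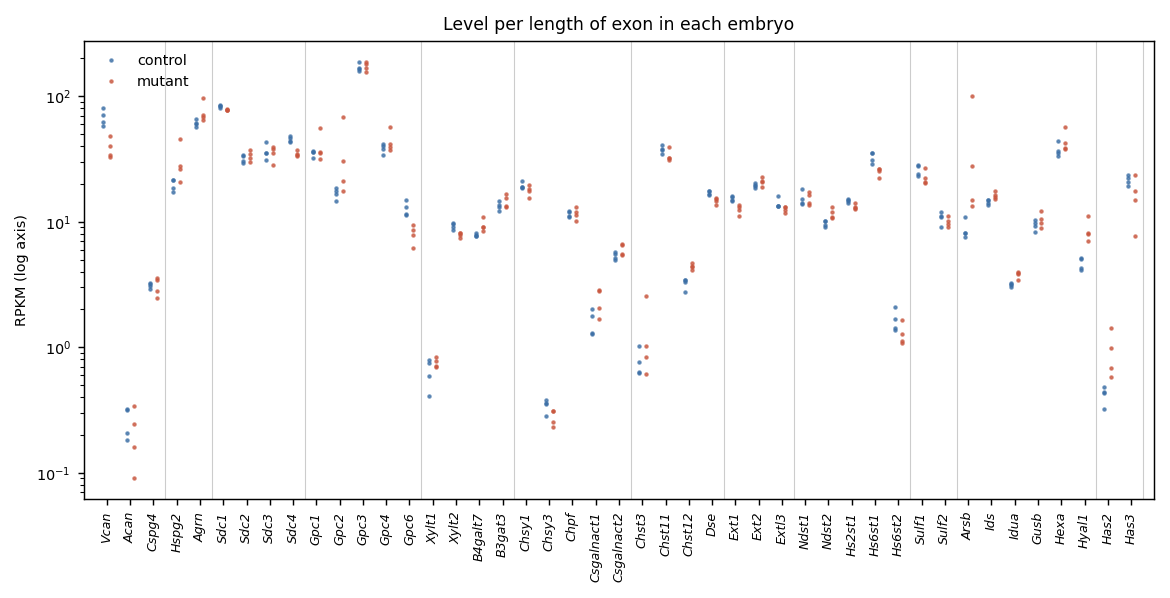
Level per length of exon (RPKM, log axis) of the 45 tested genes in each of the 4 WT and 4 mutant embryos, ordered by role. Gpc3 stands highest at a mean of 172 RPKM and Acan lowest at 0.232 RPKM.

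Of the large chondroitin sulfate proteoglycans, Vcan fell. Versican binds hyaluronan and is abundant in loose embryonic mesenchyme. Vcan (ENSMUSG00000021614, chromosome 13 of GRCm38 from 89655312 to 89742509) was at 1030, 845, 908 and 1180 CPM in J3, J5, J6 and J7 and at 476, 692, 492 and 583 CPM in K14J26, K14J28, K14J29 and K14J30, the order in which embryos are given from here on. Every mutant embryo was below every WT embryo. The means were 989 ± 146 CPM and 561 ± 99.2 CPM (SD, n = 4), and the log2 fold change was -0.82 ± 0.14 (SE, edgeR adjusted p = 0.0118). It stayed between -0.94 and -0.73 with any 1 embryo left out. With an enamel gene score (log2 CPM averaged over Mmp20, Klk4, Amelx, Ambn and Enam) as a covariate it was -0.40. With that score the call was lost (edgeR adjusted p = 0.0986). The call was also lost without J6 and J7 (-0.74, edgeR adjusted p = 0.133). The summed dental mesenchymal markers, given above, were likewise lower in every mutant embryo, and their part in the result was not tested. Acan was at 1.55, 2.39, 1.35 and 2.36 CPM in WT and at 0.673, 1.83, 2.53 and 1.20 CPM in mutant molars. Its groups overlapped (-0.29 ± 0.38, adjusted p = 0.615). Cspg4, the NG2 proteoglycan of pericytes and other progenitors, was at 34.4 to 38.7 CPM in WT and 29.4 to 42.2 CPM in mutant molars, also overlapping. Its adjusted p was 0.91.

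The heparan sulfate proteoglycans of basement membranes did not pass an adjusted p under 0.05 in edgeR. Perlecan, encoded by Hspg2 (chromosome 4 from 137468769 to 137570630), was at 246, 266, 309 and 310 CPM in WT and at 650, 299, 400 and 377 CPM in mutant molars. K14J26 stood highest, and K14J28 lay within the WT range. The log2 fold change was 0.61 ± 0.21 (adjusted p = 0.0757), and 0.34 without K14J26. Hspg2 met the study's criteria, and it was called by DESeq2 and by edgeR without K14J28. Agrin, encoded by Agrn, was at 524, 554, 606 and 573 CPM in WT and at 904, 598, 639 and 660 CPM in mutant molars. K14J28 again lay within the WT range, and the adjusted p was 0.112 with a log2 fold change of 0.31 ± 0.12.

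Syndecans are transmembrane heparan sulfate proteoglycans that act as co-receptors. Sdc4 (ENSMUSG00000017009, chromosome 2 from 164424247 to 164443887), which is found at focal adhesions, was at 111, 113, 118 and 124 CPM in WT and at 94.3, 86.1, 84.8 and 87.7 CPM in mutant molars. All mutant embryos were lower, and the spread within each group was small. Sdc4 thus fell by 0.40 on the log2 scale (SE 0.06, adjusted p = 0.00949), and its share of the summed syndecan RPKM was 23.2% ± 0.735 in WT and 19.0% ± 0.547 in mutant molars (SD, n = 4). Sdc1, the main epithelial syndecan and the most abundant here, was at 324, 309, 318 and 318 CPM and at 302, 297, 296 and 298 CPM. Mutants lay below WT without overlap, yet the difference was -0.09 ± 0.05 (adjusted p = 0.223). Sdc2, the least abundant per length, was at 108, 120, 104 and 118 CPM in WT and 131, 114, 123 and 106 CPM in mutant molars. Sdc2 (0.07, adjusted p = 0.551) and Sdc3 (-0.03, adjusted p = 0.879) overlapped between groups.

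Among the glypicans, Gpc6 fell. Gpc2 had a higher mean that met the study's criteria but did not pass an adjusted p under 0.05 in edgeR. Gpc6 (chromosome 14 from 116925315 to 117976544), which is the least abundant glypican per length, was at 83.6, 73.5, 74.7 and 95.4 CPM in WT and at 39.8, 60.1, 50.6 and 55.7 CPM in mutant molars. No mutant embryo reached the lowest WT embryo, and the log2 fold change was -0.67 ± 0.13 (adjusted p = 0.0170). Without J3, J7 or K14J29 the adjusted p rose to at most 0.0584. Gpc2 (chromosome 5 from 138273655 to 138280005), known from developing neurons, was at 74.9, 71.6, 79.5 and 62.6 CPM in WT and at 292, 75.7, 131 and 90.6 CPM in mutant molars. K14J26 was far above the rest and K14J28 lay inside the WT range (1.03 ± 0.37, adjusted p = 0.0867), and without K14J26 the log2 fold change was 0.46. Its exons share 55.59% of their length with Gm43720, which was not counted separately. Gpc3 was at 444, 454, 429 and 500 CPM and at 509, 450, 490 and 420 CPM, with overlapping groups (0.03 ± 0.08, adjusted p = 0.804). Gpc1 (0.16) and Gpc4 (0.19) overlapped as well, with adjusted p of 0.497 and 0.319.

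The linker that joins a chain to its protein is begun by xylosyltransferases. Xylt2 (chromosome 11 from 94663851 to 94677515) was at 34.5, 36.2, 38.3 and 38.5 CPM in WT and at 32.1, 31.1, 29.5 and 32.2 CPM in mutant molars. Groups were close but did not overlap, and Xylt2 fell by 0.24 on the log2 scale (SE 0.07, adjusted p = 0.0374), a call lost with no count filter. Its paralogue Xylt1 was at 3.93, 5.69, 7.58 and 7.26 CPM and at 8.03, 6.85, 6.76 and 7.49 CPM, overlapping (0.25, adjusted p = 0.393). B4galt7, which adds the next sugar, a galactose, was above WT in every mutant embryo at 24.6 to 31.4 CPM against 22.2 to 23.5 CPM, with an adjusted p of 0.0637 in edgeR, and DESeq2 called it. B3gat3, which completes the linker with glucuronic acid, was at 34.1, 35.5, 37.6 and 31.4 CPM and at 42.9, 33.9, 40.0 and 34.5 CPM. It overlapped (0.13, adjusted p = 0.366).

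None of the 5 chondroitin-polymerizing genes was called by edgeR, and 1 had an unadjusted p under 0.05, while DESeq2 called none of them either. That gene was Csgalnact1, which primes the chain with N-acetylgalactosamine and was at 6.53, 9.07, 10.3 and 6.59 CPM in WT and at 14.6, 8.62, 14.2 and 10.5 CPM in mutant molars. K14J28 lay inside the WT range, and the log2 fold change was 0.56 ± 0.21 (adjusted p = 0.0953). Csgalnact1 met the study's criteria. Chsy1, a chondroitin synthase and the most abundant of the 5, was at 77.7, 79.5, 78.5 and 89.0 CPM and at 65.0, 81.8, 76.1 and 73.6 CPM. The least abundant, Chsy3, was at 2.05, 2.76, 2.54 and 2.60 CPM and at 1.68, 2.26, 2.25 and 1.82 CPM. Both had overlapping groups, with log2 fold changes of -0.13 and -0.31 and adjusted p of 0.28 and 0.242. Chpf (0.01) and Csgalnact2 (0.17) overlapped too.

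Among enzymes that finish chondroitin and dermatan chains, Chst12 rose and Dse fell. Chst12 (chromosome 5 from 140505550 to 140525724), a chondroitin 4-O-sulfotransferase, was at 8.08, 8.16, 7.78 and 6.49 CPM in WT and at 10.3, 9.65, 10.4 and 11.1 CPM in mutant molars. Every mutant was above every WT embryo (0.44 ± 0.11, adjusted p = 0.0289), and the call was lost with library size alone as scaling. The major 4-O-sulfotransferase, Chst11, was at 191, 210, 205 and 225 CPM and at 218, 171, 178 and 179 CPM. K14J26 alone of the mutants lay within the WT range (-0.16 ± 0.09, adjusted p = 0.23). Chst12 made up 7.95% ± 1.14 of the RPKM of Chst11 and Chst12 in WT and 11.6% ± 1.16 in mutant molars (SD, n = 4). Dse (chromosome 10 from 34151393 to 34207715), the epimerase that turns chondroitin into dermatan, was at 87.1, 81.6, 83.4 and 88.2 CPM in WT and at 67.8, 76.4, 73.0 and 76.8 CPM in mutant molars. The groups were apart by a small step, and Dse fell by 0.21 on the log2 scale (SE 0.06, adjusted p = 0.0467). This call was lost with library size alone as scaling and with no count filter. It was made in 1 of the 8 fits that left out 1 embryo. Chst3, a chondroitin 6-O-sulfotransferase, was at 4.98, 4.08, 4.10 and 6.72 CPM and at 16.5, 5.46, 6.72 and 3.96 CPM. K14J26 stood apart, and K14J29 was level with the highest WT embryo, J7. The log2 fold change was 0.70 ± 0.41 (adjusted p = 0.255), and 0.11 without K14J26.

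Heparan chains are polymerized by a complex of Ext1 and Ext2. Ext1 (chromosome 15 from 53064038 to 53346159) was at 119, 128, 121 and 127 CPM in WT and at 110, 101, 106 and 89.3 CPM in mutant molars. All mutant embryos were lower, K14J30 most so, and Ext1 fell by 0.29 on the log2 scale (SE 0.07, adjusted p = 0.0325). Ext2 was at 136, 142, 150 and 144 CPM and at 152, 139, 156 and 165 CPM. Its groups overlapped (0.10 ± 0.07, adjusted p = 0.318), and no test compared the changes of the 2 subunits. Extl3, which adds the first N-acetylglucosamine of the chain, was at 80.5, 81.3, 81.4 and 96.1 CPM and at 75.5, 79.6, 70.8 and 79.8 CPM. Its groups did not overlap, with a log2 fold change of -0.15 and an adjusted p of 0.191.

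Sulfation of heparan begins with the N-deacetylase/N-sulfotransferases and proceeds to the 2-O and 6-O positions. Ndst2 (chromosome 14 from 20723730 to 20734562) was at 45.7, 42.7, 46.4 and 41.2 CPM in WT and at 58.9, 48.4, 54.4 and 50.2 CPM in mutant molars. All mutants were higher (0.27 ± 0.08, adjusted p = 0.0474). The call was lost with each of the 3 other scalings, with no count filter, and with Amelx, Ambn and Enam left out, and the adjusted p ran from 0.0223 to 0.691 over all alternatives. Its partner Ndst1 was at 115 to 151 CPM in WT and 112 to 142 CPM in mutant molars (-0.01, adjusted p = 0.975). Hs6st1 (chromosome 1 from 36068400 to 36106446), a 6-O-sulfotransferase and the most abundant sulfation enzyme of heparan here, was at 194, 196, 161 and 173 CPM in WT and at 146, 146, 124 and 142 CPM in mutant molars. Its groups did not overlap, and it fell by 0.38 on the log2 scale (SE 0.08, adjusted p = 0.0227). Hs6st2, the least abundant, was at 13.0, 11.1, 10.8 and 16.4 CPM and at 8.80, 12.8, 8.42 and 10 CPM. K14J28 lay within the WT range (-0.36 ± 0.18, adjusted p = 0.181). Summed over both genes, 6-O-sulfotransferase RPKM was 34.3 ± 3.02 in WT and 26.5 ± 2.06 in mutant molars (SD, n = 4), of which Hs6st1 made up 95.2% in each group. Hs2st1, the 2-O-sulfotransferase, was at 115 to 124 CPM in WT and 104 to 115 CPM in mutant molars, with an adjusted p of 0.0885.

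The extracellular 6-O-sulfatases, which trim sulfate from finished heparan chains, had overlapping groups. Sulf1 was at 274, 313, 263 and 318 CPM in WT and at 234, 231, 302 and 251 CPM in mutant molars, where K14J29 alone lay within the WT range (-0.20 ± 0.10, adjusted p = 0.2). Sulf2 was at 65.3, 63.8, 53.4 and 70.1 CPM and at 52.9, 65.4, 59.3 and 56.0 CPM. The groups largely coincided (-0.11 ± 0.10, adjusted p = 0.435).

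**Figure D3:**
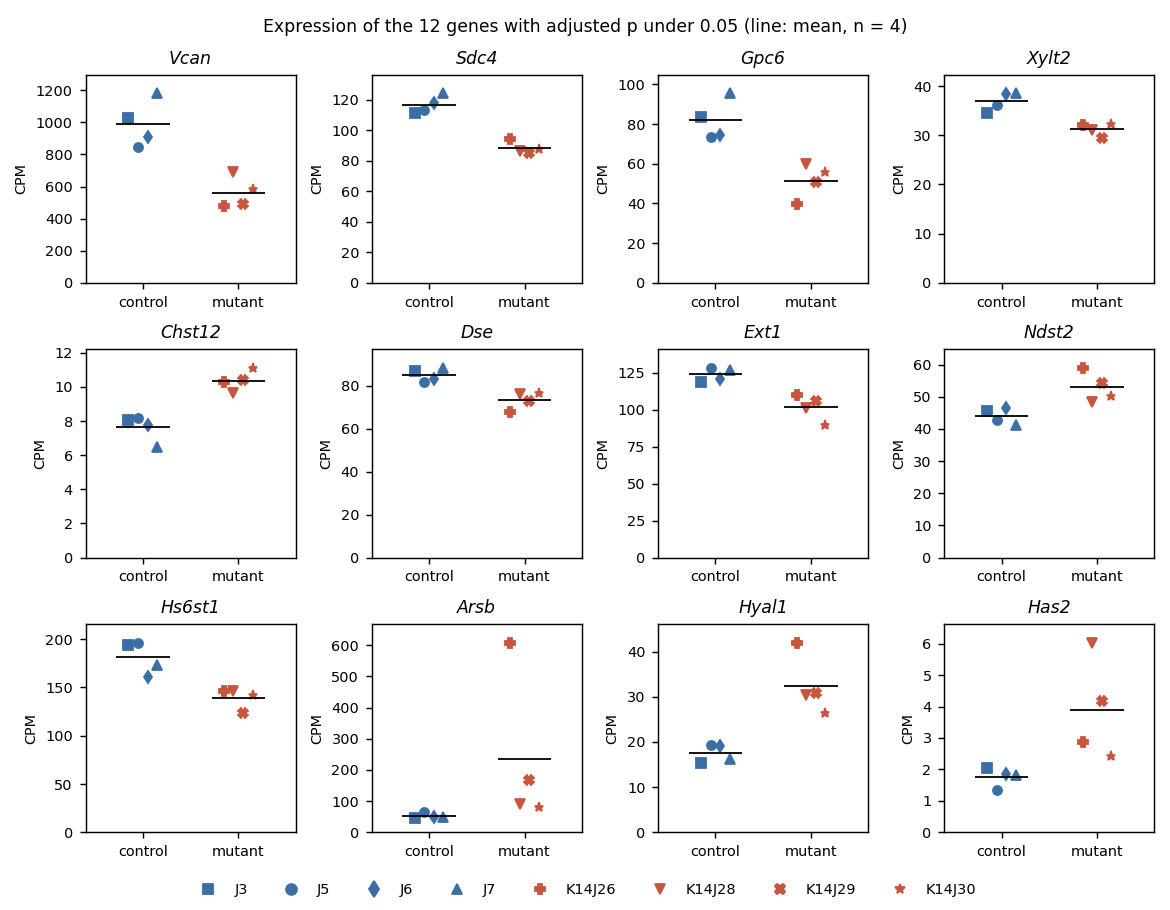
Expression (CPM, axes from 0) of the 12 genes with an adjusted p under 0.05 in each WT (blue) and mutant (red) embryo, with a line at the mean of 4; each symbol shape is 1 embryo. The groups do not overlap in any panel, and K14J26 stands apart for Arsb at 607 CPM.

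Among lysosomal hydrolases, Arsb and Hyal1 rose. Arsb (ENSMUSG00000042082, chromosome 13 from 93771630 to 93943016) encodes arylsulfatase B, which removes 4-O-sulfate from chondroitin and dermatan sulfate. It was at 45.7, 65.9, 49.4 and 48.8 CPM in WT and at 607, 90.6, 168 and 81.0 CPM in mutant molars. All 4 mutants were above WT, and K14J26 and K14J29, the embryos with the most enamel gene counts, were highest. The log2 fold change was 2.17 ± 0.60 (adjusted p = 0.0408). The call was lost in edgeR's robust fit (adjusted p = 0.0704, with a range of 0.0112 to 0.869 over all alternatives). For Arsb the log2 fold change was 1.11 without K14J26, and between 1.11 and 2.46 when any 1 embryo was left out. It was -0.16 with the enamel gene score, which also includes Mmp20 and Klk4, in the fit. Gm26527, a noncoding RNA on the opposite strand, shares 32.27% of the exonic length of Arsb, and since the library kit did not mark strand, their reads over this stretch could not be told apart. Gm26527 had 32 to 80 counts in WT and 46 to 394 in mutant molars, against 825 to 12631 for Arsb.

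Hyal1 (ENSMUSG00000010051, chromosome 9 from 107576927 to 107581710) encodes a lysosomal hyaluronidase. It was at 15.4, 19.3, 19.2 and 16.3 CPM in WT and at 41.9, 30.3, 30.8 and 26.3 CPM in mutant molars. The lowest mutant was above the highest WT embryo, and the log2 fold change was 0.88 ± 0.15 (adjusted p = 0.0107), or 0.73 without K14J26. Naa80, on the same strand, covers 50.83% of the exonic length of Hyal1 and rose by 0.59 on the log2 scale (adjusted p = 0.014), so the share of reads that each contributed is uncertain.

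The other hydrolases were not called by edgeR. Idua, which cleaves iduronic acid, was at 13.2, 13.5, 12.7 and 13.6 CPM in WT and at 16.5, 14.3, 16.9 and 16.2 CPM in mutant molars. Its groups did not overlap (0.27 ± 0.08, adjusted p = 0.0538), and DESeq2 called it. On the opposite strand, Dgkq and Slc26a1 share 2.95% and 3.35% of its exonic length, where reads could not be told apart. Both were higher in the mutants (0.45, edgeR adjusted p = 0.025, and 1.26, edgeR adjusted p = 0.0318). For Ids, the iduronate 2-sulfatase, the groups did not overlap either, at 68.8 to 76.6 CPM and 77.4 to 89.6 CPM (adjusted p = 0.107). Hexa, a subunit of beta-hexosaminidase, was at 66.8, 87.8, 72.5 and 71.1 CPM and at 77.1, 113, 84.9 and 76.1 CPM. For Hexa and for Gusb, the beta-glucuronidase, K14J28, which also had the highest sum of osteoclast and macrophage markers (1810 and 148 CPM), was the highest embryo at 113 and 55.5 CPM, and their adjusted p were 0.251 and 0.366.

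Hyaluronan is made by Has1, Has2 and Has3 at the plasma membrane. Has2 (chromosome 15 from 56665627 to 56694539), the main synthase of embryonic mesenchyme, was at 2.05, 1.36, 1.87 and 1.82 CPM in WT and at 2.88, 6.02, 4.19 and 2.44 CPM in mutant molars. All mutants were higher, K14J28 most so, at low counts of 33 to 54 in WT and 60 to 181 in mutant molars. The log2 fold change was 1.14 ± 0.29 (adjusted p = 0.0329), and 0.84 without K14J28. With library size alone as scaling it was no longer called. Has3, the synthase with the most RPKM here, was at 149, 134, 122 and 142 CPM and at 49.5, 149, 94.3 and 113 CPM. K14J26 was lowest while K14J28 was level with the highest WT embryo, J3 (-0.43 ± 0.27, adjusted p = 0.28). Has2 contributed 1.92% ± 0.304 of the summed synthase RPKM in WT and 5.80% ± 2.03 in mutant molars (SD, n = 4), and its highest WT share of 2.24% lay below the lowest mutant share of 3.15%. Has1 had 0 to 6 counts per embryo and was not tested.

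**Figure D4:**
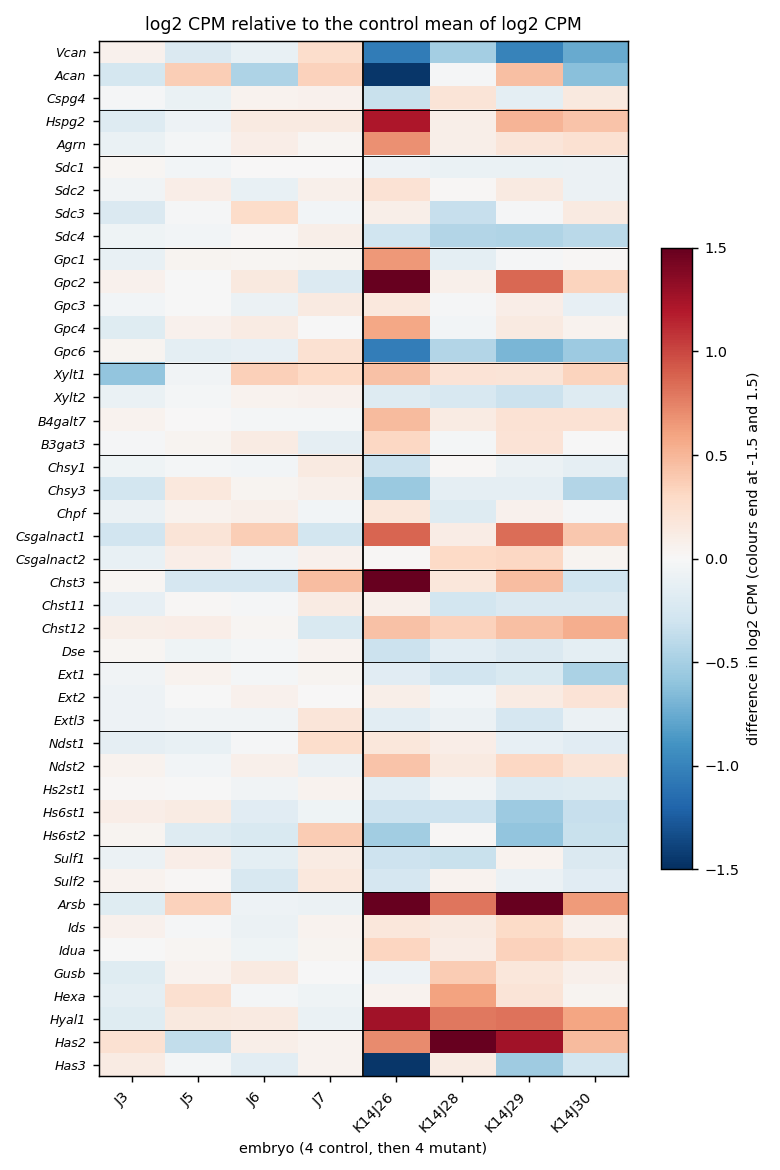
Difference in log2 CPM from the WT mean for the 45 tested genes (rows, by role) in 4 WT and 4 mutant embryos (columns). Red is above and blue below WT, and Vcan and Gpc6 are lower in all 4 mutants, while Gpc2, Chst3 and Arsb are highest in K14J26.

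The score of enamel genes was 4.73 to 6.87 in WT and 6.94 to 11.78 in mutant embryos. Since these ranges do not overlap, a fit with the score cannot cleanly separate it from genotype. With the score of enamel genes in the fit, 1 gene of the set, Sdc4 (-0.46), passed an adjusted p under 0.05. An unadjusted p lay under 0.05 in 15, while 1.74% of all genes passed the adjusted and 21% the unadjusted threshold. The log2 fold change of Vcan was -0.40 in that fit, that of Gpc6 -0.23, that of Hyal1 0.47 and that of Has2 1.63. Dse was at -0.08, Ndst2 at 0.07, Xylt2 at -0.26, Ext1 at -0.41, Hs6st1 at -0.32 and Chst12 at 0.38. Hspg2 (-0.10), Gpc2 (-0.41), Csgalnact1 (-0.12) and Chst3 (-0.41) were below 0, as was Arsb. Without J6 and J7, the WT embryos with the highest muscle marker sums, edgeR called 0 of the set and 11 had an unadjusted p under 0.05, with 7 of 16881 genes called and 20.9% under the unadjusted threshold in the whole table. The adjusted counts of the set are near the background of these fits. Without J6 and J7 the directions of the 12 calls stayed as they were, with Vcan at -0.74, Sdc4 at -0.34 and Hyal1 at 0.89.

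**Figure D5:**
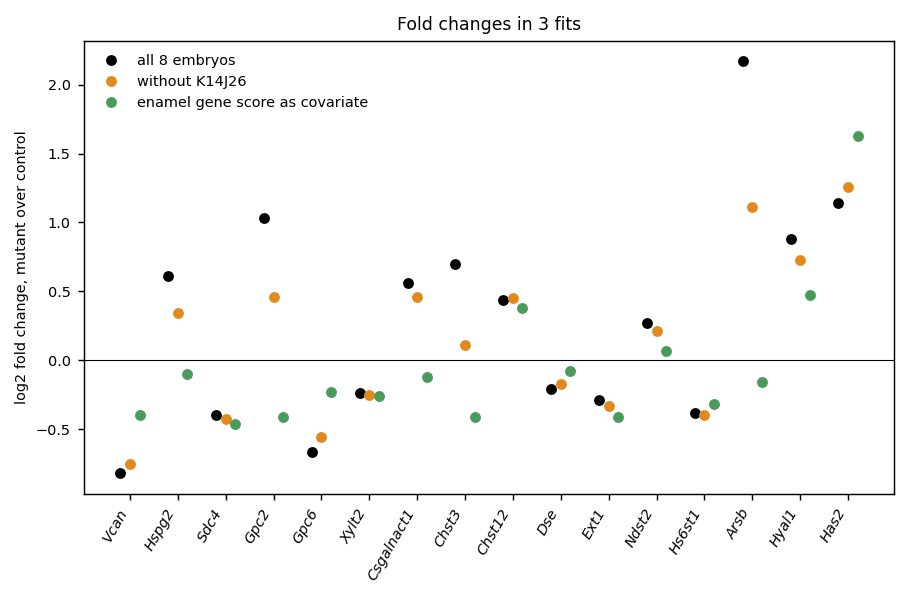
Log2 fold change (mutant over WT) of the 12 called genes and of the 4 others with an absolute value of at least 0.5, with all 8 embryos, without K14J26, and with an enamel gene score as covariate. Sdc4 is at -0.40, -0.43 and -0.46 in these fits and Arsb at 2.17, 1.11 and -0.16.

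A wider list of 62 genes held the rest of the pathway: other core proteins and hyaluronan partners, precursor supply, further enzymes of chain synthesis, and other degrading enzymes. Of its 57 tested genes, 8 rose and 4 fell (21.1%, against 16.1% of all genes), with a median log2 fold change of 0.01. Without J3, J7 or K14J29 there was 1 rise and 1 fall, without J5 or J6 there were 4 rises and 2 falls, and without K14J28 14 rises and 9 falls. With the enamel score there was 1 rise and no fall, and without J6 and J7 edgeR called none, 17 having an unadjusted p under 0.05. Cemip, which degrades hyaluronan outside lysosomes, was at 6.22 to 9.65 CPM in WT and 15.9 to 33.2 CPM in mutant molars (1.54 ± 0.24, adjusted p = 0.00949). Hapln1, the link protein that fixes versican and aggrecan to hyaluronan, was at 63.6 to 84.8 CPM and 36.7 to 52.9 CPM (-0.76 ± 0.13, adjusted p = 0.0104). Neither overlapped between groups.

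Among other core proteins of the wider list, Spock2 (testican) fell by 0.61 on the log2 scale (adjusted p = 0.0179) and Bcan (brevican) rose by 1.56 (adjusted p = 0.0194). In precursor supply, Slc35d2, a nucleotide sugar transporter, rose by 0.98 (adjusted p = 0.0221), and Slc26a2, which imports sulfate, rose by 0.79 (adjusted p = 0.0294). Ugdh, which makes UDP-glucuronic acid, fell by 0.40 (adjusted p = 0.0286). Of the chondroitin sulfotransferases, Chst15 rose by 0.50 (adjusted p = 0.0178) and Chst13 by 1.06 (adjusted p = 0.0334), the latter with overlapping groups. The 2 remaining calls, outside the 10 smallest p and named after their values were seen, were the sulfotransferase Chst14, which fell by 0.28 (adjusted p = 0.0436), and the lysosomal sulfatase Galns, which rose by 0.65 (adjusted p = 0.0454). Fam20b, the kinase that phosphorylates the xylose of the linker, rose by 0.25 (adjusted p = 0.0391). None of 10 tested heparan enzymes of the wider list was called by edgeR, and 1 had an unadjusted p under 0.05.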

How the data were processed

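The authors prepared poly A libraries with a kit that does not mark strand, sequenced them single-end, trimmed the reads, aligned them with STAR to GRCm38 (GRCm38.p3 per the labels) and deposited, per embryo, raw read counts for 43629 Ensembl genes, without normalization. The labels name featureCounts and the methods GenomicRanges as the counter; the handling of strand and of multiply matching reads is not given in the sources used here.

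Symbols, positions and exon lengths came from GENCODE M21, which held 42462 of the identifiers, and promoter windows from RefSeq on GRCm38.p6. A gene entered the test with 10 or more counts in 2 embryos of WT or of mutants. Libraries were scaled by TMM and tested with edgeR 4.0.16 (R 4.3.3; glmQLFit and glmQLFTest, no covariates, Benjamini-Hochberg over 17129 genes). The fit was tested on simulated data, 4 against 4, with 200 of 16830 genes changed 2-fold. It recovered 99% of the changed genes, and 7.04% of the calls were false. The simulation gave all genes and both groups the same dispersion and changed only genes with ample counts. In the real data, chi-square per degree of freedom was 7.17 to 16.1 between WT embryos and 31.4 to 299 between mutant embryos. Of the 45 tested genes of the set, 36 had absolute log2 fold changes under 0.5. The simulated rates therefore need not hold for the real data. CPM are counts relative to the TMM-scaled library size, and RPKM are CPM per kilobase of merged exons. Each SE is the absolute log2 fold change over the square root of F. Enamel score: log2 CPM, with a prior count of 2, averaged over Mmp20, Klk4, Amelx, Ambn and Enam. Precision rests on 4 embryos per group and on 17327224 to 29792467 counts per embryo.

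Values of every embryo are given for genes called, for those with an absolute log2 fold change of at least 0.5, and for the most and least abundant (RPKM) of each role; from the wider list, the 10 called genes with the smallest p are named. The members, lists and rules were chosen with earlier results of these data known. Alternatives were DESeq2 1.42.0, other scalings and filters, a robust fit, the enamel score, and embryos left out. No paired analysis was run, as the groups share no replicate numbers and the litter of each embryo was not used.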

Additional observations from a re-analysis of the deposited data

Results flagged for a closer look

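Arsb was at 607 CPM in the mutant embryo K14J26, while the other 3 mutants lay between 81.0 and 168 CPM. The gap to the nearest embryo was 0.835 of the range of the group, above the critical value of 0.829 of Dixon's test for 4 samples. It was the only such embryo in 34 groups of 4 examined (the 16 named genes of the set and Jag1, in both groups), and chance flags about 1 in 20. K14J26 also had the largest share of counts on Amelx, Ambn and Enam (9.57%). The log2 fold change of Arsb was 1.11 without K14J26. It was -0.16 with the enamel gene score, which also includes Mmp20 and Klk4, as a covariate.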

How the results depend on the processing

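Of the set, 5 genes rose and 7 fell at an adjusted p under 0.05, 6 rose and 2 fell by the study's criteria, and 8 rose and 4 fell in the wider list. DESeq2 called 8 rises in the set and 14 in the wider list, and 23.1% of all genes against 16.1% in edgeR; it added Hspg2, B4galt7 and Idua to the 12. With library size alone as scaling, which moved the median of all genes from 0.01 to -0.09, there were 2 rises in the set and 2 falls in the wider list (11.2% of all genes). Of all calls, 59% were higher, against 44.6% with library size alone and 48.5% with upper-quartile scaling. With the enamel score as covariate, the set had 0 rises and 1 fall in edgeR (15 genes with an unadjusted p under 0.05), 1 and 0 by the study's criteria, and the wider list 1 and 0 (5 unadjusted), with 1.74% of all genes called and 21% unadjusted. Without J6 and J7, edgeR called 0 rises and 0 falls in the set (11 unadjusted) and 0 and 0 in the wider list (17 unadjusted), with 7 of 16881 genes called in all and 20.9% unadjusted. Without K14J26 and K14J29 together, a fit added after seeing the data, the set had 2 rises and 4 falls, 3 rises by the study's criteria, and the wider list 3 rises (7.84% of all genes). At an adjusted p under 0.1 there were 10 rises in the set and 18 in the wider list (27.7% of all genes). With 1 embryo left out, the set had 1 to 11 rises and 2 to 8 falls, 3 to 7 rises and 2 to 4 falls by the study's criteria, and the wider list 1 to 14 rises and 1 to 9 falls, while all genes gave 250 to 2479 rises and 170 to 1843 falls. Signs turned with the enamel score for Hspg2 (-0.10), Gpc2 (-0.41), Csgalnact1 (-0.12), Chst3 (-0.41) and Arsb (-0.16), and without K14J26 and K14J29 for Chst3 (-0.09); the cause was not tested. Over the 17 named genes and all alternatives, 238 of 340 values kept their direction and side of the threshold, 89 lost and 7 gained significance, and 6 turned sign. Depth limits Has1, with 0 to 6 counts per embryo.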
